A study of Mus musculus with 9 samples.

Results

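The regions described are 5 distal segments of the mouse genome and the H3R2me2a peaks listed in them. They are chr5:110500001-150000000, chr7:117000001-145500000, chr8:103500001-127500000, chr9:97500001-123500000 and chr12:102000001-113250000 in the build mm10. A peak belonged to a segment when its start lay within these bounds. The segments were selected on the peak density of the Prmt6 knockout lists, so that density is given as a description with no test. They covered 129 Mb, or 19.7% of the length of chromosomes 5, 7, 8, 9 and 12, and the other 527 Mb of the same chromosomes served for comparison. Of the 1541235 peaks in 6 lists, 60295 started in a segment and 325754 in the rest of these chromosomes.

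H3R2me2a is asymmetric dimethylation of arginine 2 of histone H3, a mark written mainly by the arginine methyltransferase PRMT6. It is known to hinder the deposition of trimethylation on the neighbouring lysine 4, a mark of active promoters, and lysine 4 trimethylation hinders PRMT6 in turn. Gene-dense regions of mammalian chromosomes are in general richer in G and C than gene-poor ones, and the promoters of broadly used genes often lie in CpG islands.

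The libraries came from mouse bone marrow cells that the series' design text calls leukemia cells, grown with IL3, IL6 and SCF, fixed with formaldehyde and sonicated. The groups were Prmt6KO (Prmt6-/-), Igf2bp2KO (Igf2bp2-/-) and WT, with 2 libraries of H3R2me2a chromatin immunoprecipitation (ChIP-seq) each, and IGF2BP2 is an RNA-binding reader of m6A. The labels name no leukemia driver, sex or age, and do not state from which animals or cultures the replicates were taken, which means that their spread may be technical. The labelled cell type could not be checked against markers, because a peak list of this mark does not measure expression.

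The libraries differed before any segment was considered. The lists held 812414 and 430225 peaks in Prmt6KO, 961 and 1221 in Igf2bp2KO and 162454 and 133960 in WT. The background in fragments, which stands in for sequencing depth, was 0.736 and 1.21 in Prmt6KO, 1.45 and 1.33 in Igf2bp2KO and 1.46 and 1.44 in WT. The lowest summits listed held 2 and 3 fragments in Prmt6KO, 8 and 7 in Igf2bp2KO and 4 and 4 in WT. Prmt6KO replicate 1 stood apart along the genome. Over 2403 autosomal bins of 1 Mb its peak density had a Spearman correlation of 0.14 with Prmt6KO replicate 2, where Prmt6KO replicate 2 had 0.78 and 0.82 with WT replicates 1 and 2, and the WT libraries had 0.86 with each other. WT replicate 1 stood apart on chromosome X, at 0.181 times its autosomal peak density, against 0.958 and 1.22 in Prmt6KO, 0.769 and 1.24 in Igf2bp2KO and 1.197 in WT replicate 2. Results are therefore given for each library.

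Promoters show what a listed peak in these segments looks like. A promoter was taken as 250 bases before to 50 bases after a gene start in the RefSeq table for GRCm38.p6, and 2737 such promoters, of 2229 genes, lay in the segments. The upstream 250 bases held a peak in 318 and 76 of them in Prmt6KO, in 0 and 0 in Igf2bp2KO and in 26 and 8 in WT. Both Prmt6KO libraries had one in 14 promoters, and both WT libraries in 0. The following 3 of those 14 had the highest lower fold enrichment in Prmt6KO, and each is printed from RefSeq GRCm38.p6, plus strand, with CpG dinucleotides in capitals. Dzip1l encodes a protein of the ciliary transition zone (chr9:99629281-99629530), 1700102P08Rik lies at chr9:108392584-108392833, and Wdr66 encodes a protein of the sperm flagellum (chr5:123253538-123253787).
Dzip1l: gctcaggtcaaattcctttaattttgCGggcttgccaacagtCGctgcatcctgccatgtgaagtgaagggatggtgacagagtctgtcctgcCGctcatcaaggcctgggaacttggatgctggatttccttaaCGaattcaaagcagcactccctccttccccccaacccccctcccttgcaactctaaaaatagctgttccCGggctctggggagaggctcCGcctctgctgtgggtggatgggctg
1700102P08Rik: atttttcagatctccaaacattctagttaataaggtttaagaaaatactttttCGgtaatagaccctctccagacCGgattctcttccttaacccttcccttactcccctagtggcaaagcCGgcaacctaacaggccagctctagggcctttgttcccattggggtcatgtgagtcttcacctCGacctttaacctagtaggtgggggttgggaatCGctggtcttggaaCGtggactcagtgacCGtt
Wdr66: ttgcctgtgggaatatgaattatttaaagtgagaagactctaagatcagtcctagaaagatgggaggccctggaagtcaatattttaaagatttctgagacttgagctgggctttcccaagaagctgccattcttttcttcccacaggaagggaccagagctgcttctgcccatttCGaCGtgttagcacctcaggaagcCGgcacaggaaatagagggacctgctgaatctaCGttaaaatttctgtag

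These stretches had G+C contents of 55.6%, 47.6% and 45.2% with 6, 7 and 4 CpG. Fold enrichment, the authors' ratio of summit to background, was 2.30 at each of them in Prmt6KO replicate 1, and 2.72, 2.26 and 2.26 in Prmt6KO replicate 2. No Igf2bp2KO or WT list had a peak in them. Summits of this size hold 3 to 5 fragments.

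The next pair carried the highest WT fold enrichments of any upstream stretch in the segments. Lyrm1, a gene of the LYR motif family, lies at chr7:119899861-119900110 and Gm4275 at chr7:130520439-130520688. Traf3, which encodes a signalling adaptor of the TNF receptor superfamily (chr12:111166120-111166369), had no peak here in any list and, among such genes of the lists described below, the highest G+C content.
Lyrm1: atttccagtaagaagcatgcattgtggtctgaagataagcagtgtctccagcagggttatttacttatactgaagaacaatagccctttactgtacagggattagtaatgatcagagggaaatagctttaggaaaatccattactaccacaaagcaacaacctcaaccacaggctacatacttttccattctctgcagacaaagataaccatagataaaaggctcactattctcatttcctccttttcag
Gm4275: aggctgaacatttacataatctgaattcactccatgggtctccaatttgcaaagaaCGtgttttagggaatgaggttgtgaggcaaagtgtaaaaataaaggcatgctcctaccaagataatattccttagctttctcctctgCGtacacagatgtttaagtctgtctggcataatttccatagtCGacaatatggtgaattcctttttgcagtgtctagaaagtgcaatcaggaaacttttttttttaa
Traf3: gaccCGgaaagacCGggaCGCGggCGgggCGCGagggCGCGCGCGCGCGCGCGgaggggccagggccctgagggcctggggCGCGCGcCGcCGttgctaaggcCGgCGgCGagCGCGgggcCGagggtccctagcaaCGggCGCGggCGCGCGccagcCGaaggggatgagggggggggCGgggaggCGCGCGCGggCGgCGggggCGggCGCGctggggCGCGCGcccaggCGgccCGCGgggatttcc

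Lyrm1 had a fold enrichment of 3.28 in WT replicate 2, Gm4275 one of 3.25 in WT replicate 1, and no other list had a peak at either. Their G+C contents were 38.8% and 37.2%, with 0 and 3 CpG. The Traf3 stretch had 85.2% G+C and 49 CpG. Across all segment promoters, peaks were likewise rarer at 50% G+C or more than below it in the Prmt6KO and WT lists.

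The 5 segments had been picked out as dense in the Prmt6 knockout, but over all 5 together no list was denser there than in the rest. In Prmt6KO they held 39429 and 13224 peaks, or 305 and 102 per Mb, against 322 and 173 per Mb in the rest of the chromosomes. In Igf2bp2KO they held 2 and 5 peaks, or 0.0155 and 0.0387 per Mb, against 1.01 and 1.11 in the rest. In WT they held 4857 and 2778 peaks, or 37.6 and 21.5 per Mb, against 69.2 and 51.8 in the rest. The ratio of segment to rest was thus 0.949 and 0.591 in Prmt6KO, 0.0153 and 0.0350 in Igf2bp2KO and 0.543 and 0.415 in WT. The segments were sparse in WT and in Prmt6KO replicate 2, and nearly even with the rest in Prmt6KO replicate 1. The rest itself had the density of other autosomes, which was 316 and 167 per Mb in Prmt6KO and 68.2 and 53.5 in WT.

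The counting error of these shares was small. Of the peaks on the 5 chromosomes, the segments took 18.9% (95% Wilson interval 18.7 to 19.04) and 12.6% (12.4 to 12.8) in Prmt6KO, 0.374% (0.103 to 1.35) and 0.850% (0.364 to 1.97) in Igf2bp2KO, and 11.8% (11.4 to 12.1) and 9.24% (8.92 to 9.57) in WT. The intervals cover counting error alone, since neighbouring peaks and amplified reads are not independent. The libraries of a genotype differed by more than that error in Prmt6KO and WT.

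**Figure D1:**
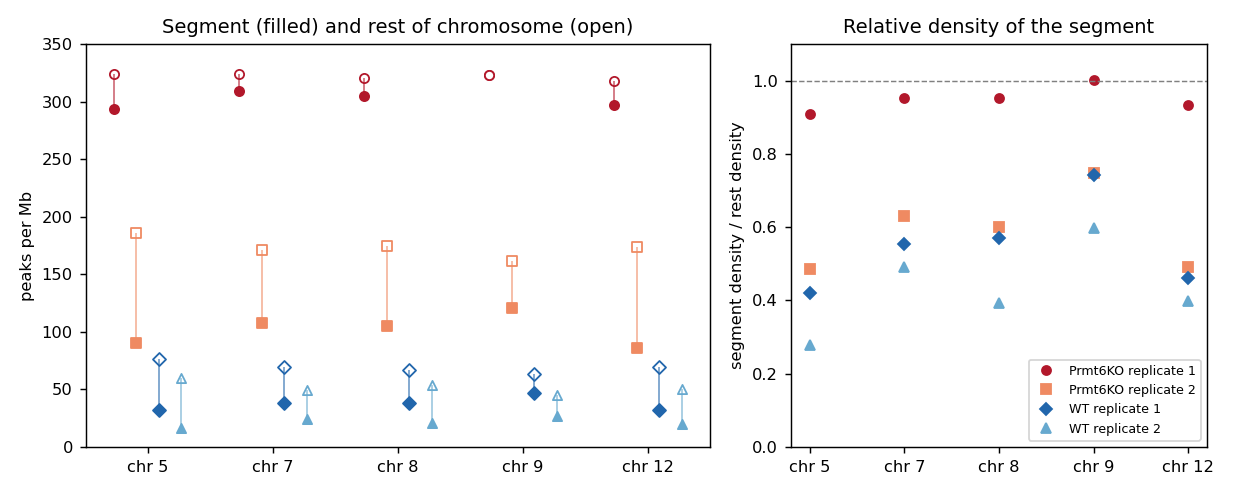
Peaks per Mb (left, vertical axis) in each segment (filled) and in the rest of its chromosome (open), and the ratio of these densities (right), for the Prmt6KO and WT libraries on chromosomes 5, 7, 8, 9 and 12. Prmt6KO replicate 1 lies between 0.908 and 1.00 on the right, and Prmt6KO replicate 2 between 0.486 and 0.747, just above WT replicate 1.

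Relative to WT, Prmt6KO density was higher in the segments than elsewhere, and the size of that difference depended on the library. On the log2 scale the mean ratio of segment to rest was -0.42 ± 0.48 in Prmt6KO and -1.07 ± 0.27 in WT (SD, n = 2 each), a difference of 0.66, or 1.58-fold, with a pooled SD of 0.39. No test is given, because the segments were selected on at least 1 side of this contrast. Over all 5 together neither Prmt6KO list was denser there than in the rest. Whether WT density also entered the choice is not stated. Without Prmt6KO replicate 1 the difference was 0.31 and without Prmt6KO replicate 2 it was 1.00. Without WT replicate 1 it was 0.85, and without WT replicate 2 it was 0.46. Prmt6KO replicate 1 had 8.12 and 14.2 times the peaks of WT replicates 1 and 2 in the segments, against 4.65 and 6.21 times in the rest. Prmt6KO replicate 2 had 2.72 and 4.76 times their peaks in the segments, against 2.504 and 3.35 times in the rest.

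The same segments were sparsest and densest, relative to the rest, in all 4 of these lists. The chromosome 5 segment had ratios of 0.908 and 0.486 in Prmt6KO and 0.420 and 0.278 in WT, the lowest of the 5. The chromosome 9 segment had 1.00 and 0.747 in Prmt6KO and 0.743 and 0.598 in WT, the highest of the 5. The ratio of Prmt6KO replicate 2 exceeded that of WT replicate 1 in each segment. On chromosome 7 they were 0.631 and 0.554. On chromosome 8 they were 0.602 and 0.571, and on chromosome 12 they were 0.492 and 0.462. WT replicate 2 was lowest in all 5 segments, and over all 5 together the WT libraries differed from each other by more than Prmt6KO replicate 2 differed from WT replicate 1.

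The segment starts were visible as a step in every Prmt6KO and WT list but that of Prmt6KO replicate 1. In the 2 Mb just inside the starts, mean density over the 5 segments was 0.950 and 0.606 times that of the rest in Prmt6KO, and 0.597 and 0.392 times in WT. In the 2 Mb just outside it was 0.974 and 0.968 times in Prmt6KO, and 1.01 and 1.00 times in WT. The step was sharpest on chromosome 5, at 277.5 and 64.5 peaks per Mb inside against 328.5 and 191 outside in Prmt6KO, and 25 and 6.5 inside against 78.5 and 58 outside in WT. On chromosome 7, where it was shallowest in WT, there were 290 and 115 inside against 313 and 152.5 outside in Prmt6KO, and 41.5 and 24 inside against 56.5 and 40 outside in WT. On chromosome 8 alone Prmt6KO replicate 1 was denser inside, at 325.5 against 270 outside. The bounds were set on density, so these values describe the choice of the bounds.

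**Figure D2:**
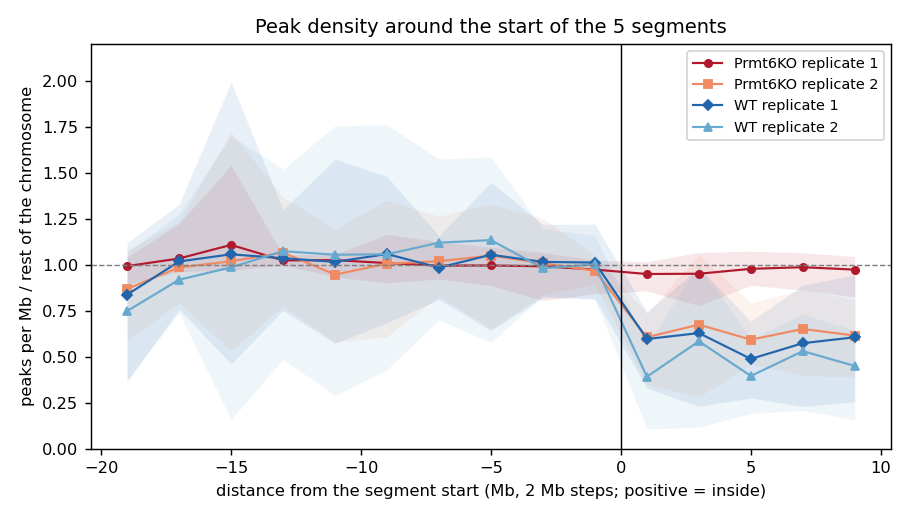
Peak density in 2 Mb steps around the segment starts (horizontal axis, Mb, positive inside), divided by the density in the rest of the same chromosome (vertical axis). Lines are means over 5 segments and bands run from the lowest to the highest segment; Prmt6KO replicate 1 stays near 1 on both sides, while the first step inside falls to 0.606 in Prmt6KO replicate 2 and to 0.597 and 0.392 in WT.

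At the far ends the segments gave way to denser flanks in most lists. In the last 1 Mb of the chromosome 12 segment there were 246 and 59 peaks in Prmt6KO and 21 and 3 in WT, against 314 and 169 in Prmt6KO and 70 and 28 in WT in the 1 Mb beyond. On chromosome 9 Prmt6KO replicate 1 ran the other way, with 356 inside and 267 beyond, while Prmt6KO replicate 2 had 123 and 161 and WT had 52 and 42 inside against 94 and 61 beyond. The chromosome 7 segment ran to the last listed peak of the chromosome, so it had no far flank.

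Within the segments the 1 Mb bins varied little in Prmt6KO replicate 1 and more in the others. Over 129 bins the lowest, median and highest counts per Mb were 225, 308 and 375 in Prmt6KO replicate 1 and 44, 103 and 206 in Prmt6KO replicate 2. In WT they were 10, 38 and 90 in replicate 1 and 1, 21 and 59 in replicate 2. The coefficient of variation was 9.91% and 28.4% in Prmt6KO and 38.5% and 48.0% in WT. Of the 129 bins, 83 and 127 lay below the median of the rest in Prmt6KO, and 124 and 127 in WT. Low density was thus a property of nearly every bin in 3 of these 4 lists, not of a few gaps.

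The lists ranked the bins alike inside the segments, more so than outside for Prmt6KO replicate 1. Its Spearman correlation over the 129 bins was 0.71 with Prmt6KO replicate 2 and 0.65 and 0.64 with the WT libraries, against -0.02 and 0.10 and 0.02 over the 527 bins of the rest. Prmt6KO replicate 2 had 0.80 and 0.76 with the WT libraries in the segments and 0.81 and 0.86 in the rest. Bins of 1 genome share their base composition in every library, so these correlations are descriptions and carry no test.

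On chromosome 5 the bin with the highest Prmt6KO mean, chr5:145500001-146500000, holds the Cyp3a cluster of drug-metabolising cytochromes and Cdk8, the kinase of the Mediator complex. It had 375 and 206 peaks in Prmt6KO, 0 and 1 in Igf2bp2KO and 90 and 59 in WT. On chromosome 7 the highest bin, chr7:124000001-125000000, held no protein-coding gene and had 345 and 152 peaks in Prmt6KO and 51 and 29 in WT. The lowest, chr7:144000001-145000000, holds Ccnd1, which encodes cyclin D1, and the growth factor genes Fgf3, Fgf4 and Fgf15, and had 273 and 53 in Prmt6KO and 13 and 7 in WT.

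The chromosome 8 extremes were chr8:107500001-108500000 around Zfhx3, a large zinc finger transcription factor gene, with 351 and 135 peaks in Prmt6KO and 45 and 17 in WT, and chr8:121500001-122500000 with 22 genes, among them Slc7a5 and Cyba, with 231 and 46 in Prmt6KO and 15 and 8 in WT. On chromosome 9 the highest bin held Stag1, a cohesin subunit gene, with 351 and 178 in Prmt6KO and 77 and 59 in WT. The lowest held Ctnnb1, which encodes beta-catenin, with 275 and 78 in Prmt6KO and 27 and 11 in WT. On chromosome 12 the highest bin, around Rin3 and Chga, had 330 and 126 in Prmt6KO and 50 and 32 in WT, and the lowest, with the kinase gene Akt1 and the Notch ligand gene Jag2, had 257 and 63 in Prmt6KO and 19 and 6 in WT. The bins were picked by Prmt6KO density, and the WT lists were also higher in the first bin of each pair.

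Summits of 9 fragments gave a lower ratio of segment to rest than the shortest summits in each Prmt6KO and WT list. In Prmt6KO replicate 1 the ratio of segment to rest was 0.960 for summits of 2 fragments (95% Wilson interval 0.937 to 0.984), 0.978 at 3 fragments and 0.913 at 4. It was 0.734 at 6 fragments (0.663 to 0.812), 0.543 at 7, 0.323 at 8 (0.189 to 0.553) and 0.102 at 9 (0.0276 to 0.377). In Prmt6KO replicate 2 it was 0.664 at 3 fragments (0.630 to 0.701), 0.580 at 5, 0.418 at 7, 0.311 at 8 and 0.166 at 9 (0.0914 to 0.300). In WT replicate 1 it was 0.596 at 4 fragments, 0.513 at 7 and 0.443 at 9 (0.347 to 0.566), and in WT replicate 2 it was 0.473 at 4, 0.407 at 7 and 0.302 at 9 (0.205 to 0.445). For summits of 10 fragments or more it was 0.0956 and 0.120 in Prmt6KO and 0.195 and 0.148 in WT.

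**Figure D3:**
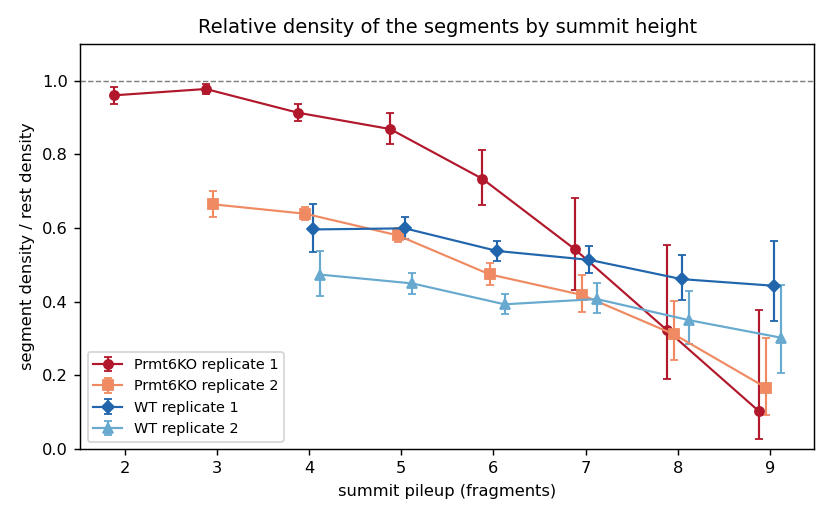
Density in the segments divided by that in the rest (vertical axis) for peaks of each summit pileup in fragments (horizontal axis), with 95% Wilson intervals as bars, for the Prmt6KO and WT libraries. Prmt6KO replicate 1 is the highest at 4 to 7 fragments and the lowest at 9, where it reaches 0.102 against 0.443 and 0.302 in WT.

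The order of the genotypes depended on how height was measured. At 5 fragments the ratio was 0.869 and 0.580 in Prmt6KO and 0.599 and 0.449 in WT. For summits of 8 fragments or more it was 0.201 (0.128 to 0.318) and 0.236 (0.190 to 0.294) in Prmt6KO and 0.407 (0.365 to 0.454) and 0.304 (0.255 to 0.361) in WT, so both Prmt6KO lists were below both WT lists. The log2 difference between Prmt6KO and WT was -0.69 for these peaks, a height chosen after the data were seen, against 0.66 for all peaks. It was 0.70 for summits of 6 times the own background or more and 0.53 at a fold enrichment of at least 4. At these thresholds Prmt6KO replicate 1 had ratios of 0.807 and 0.640. Prmt6KO replicate 2 had 0.236 at both, between 0.318 and 0.229 in WT, so the positive differences came from Prmt6KO replicate 1. Of the thresholds computed as a difference, the sign of the mean turned at 8 fragments or more alone. A fixed number of fragments is a different multiple of background in each list. For summits of 16 fragments or more, of which each of these lists held 3 in the segments, the ratio was 0.765 (0.238 to 2.46) and 0.204 (0.0677 to 0.615) in Prmt6KO and 0.175 (0.0583 to 0.525) and 0.331 (0.108 to 1.01) in WT. There were 19 and 86 segment peaks of 8 fragments or more in Prmt6KO, and 351 and 137 in WT. At the rest's density 94.3 and 364 would have been listed in Prmt6KO, and 862 and 451 in WT.

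Short summits were a trait of the whole Prmt6KO lists, inside and outside the segments. Summits of 2 to 5 fragments were 98.6% and 88.5% of segment peaks in Prmt6KO and 41.4% and 47.3% in WT, where the rest had 98.0% and 84.5% in Prmt6KO and 37.6% and 43.3% in WT. Height moved with depth: the background was 0.736 fragments in Prmt6KO replicate 1 and 1.21 to 1.46 in the other 3 lists, so 5 fragments is a larger multiple of background there. Counted at 6 times the own background or more, the ratio was 0.807 and 0.236 in Prmt6KO and 0.318 and 0.229 in WT, against 0.960 and 0.664 in Prmt6KO and 0.596 and 0.473 in WT in the lowest class, of 2 to 3 times. By this measure it fell the least in Prmt6KO replicate 1. The part of depth in the Prmt6KO values was not tested.

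Segment peaks were also somewhat narrower and lower than those outside. Mean width was 275 and 261 bp in Prmt6KO and 255 and 255 bp in WT, against 283 and 281 bp in Prmt6KO and 277 and 278 bp in WT in the rest. The mean summit was 3.12 and 4.49 fragments in Prmt6KO and 5.90 and 5.73 in WT, against 3.17 and 4.63 in Prmt6KO and 6.06 and 5.87 in WT in the rest. A q-value of 0.05 or below was reached by 0.259% and 0.650% of segment peaks in Prmt6KO and by 2.12% and 1.40% in WT. In the rest those shares were 0.595% and 1.63% in Prmt6KO and 3.63% and 2.55% in WT.

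Igf2bp2KO lists were nearly empty in the segments. The log2 ratio of segment to rest was -5.43 ± 0.84 in Igf2bp2KO and -1.07 ± 0.27 in WT (SD, n = 2 each), a difference of -4.36, and both Igf2bp2KO libraries were below both WT libraries. The segments differed: on chromosome 9, with 1 and 1 peaks, the ratio was 0.612 and 1.22 in Igf2bp2KO and 0.743 and 0.598 in WT, and on chromosome 7, also with 1 and 1, it was 0.402 and 0.192 in Igf2bp2KO and 0.554 and 0.492 in WT. On chromosome 5 it was 0 and 0.0340 in Igf2bp2KO and 0.420 and 0.278 in WT, and on chromosomes 8 and 12 no Igf2bp2KO peak was listed. The two-sided exact permutation p was 0.333, the smallest that 2 libraries against 2 allow. It may not be free of the choice of the segments, if WT density entered that choice. The lists were cut at unlike heights, with lowest summits of 8 and 7 fragments in Igf2bp2KO and 4 and 4 in WT. For summits of 10 fragments or more the ratio was 0.0158 and 0.0433 in Igf2bp2KO and 0.195 and 0.148 in WT. These lie closer together than the ratios over all peaks, and the part of height was not tested. The rest was unlike other autosomes here: 241 and 244 of its 533 and 583 Igf2bp2KO peaks were on chromosome 5 and 268 and 306 on chromosome 8. With all other autosomal sequence as the comparison the ratio was 0.0387 and 0.0787, a log2 difference from WT of -3.10, and among peaks with a q of 0.05 or below the difference was -0.91. With 2 and 5 peaks, the density within the segments is known only to the width of the Wilson intervals above.

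Summits of 16 fragments or more were listed at 4 places in the segments, and at 2 of these, Lars2 and Mrgprd, in all 6 lists. At Lars2, the mitochondrial leucyl-tRNA synthetase gene, a peak at chr9:123461667-123462211 in Prmt6KO replicate 1 was matched in every list. Its summit held 43 and 95 fragments in Prmt6KO, 37 and 29 in Igf2bp2KO and 70 and 26 in WT. The WT values overlapped those of each knockout, and both Igf2bp2KO values were below both Prmt6KO values. Near the end of chromosome 7, 16714 bases from Mrgprd, a sensory neuron receptor gene, a peak at chr7:145340773-145341448 held 33 and 62 fragments in Prmt6KO, 51 and 67 in Igf2bp2KO and 94 and 64 in WT. Here both Prmt6KO summits were below both WT summits, and Igf2bp2KO overlapped both groups. Fold enrichment was 19.6 and 28.5 in Prmt6KO, 10.8 and 15.1 in Igf2bp2KO and 38.6 and 26.7 in WT. By that measure Prmt6KO and WT overlapped. In Igf2bp2KO the pileup was on a scale of 0.277 and 0.302 per fragment when 1 was added. Its fold enrichments are therefore lower for the same fragments, and they are not ranked against the other lists. In Cdk8 a peak at chr5:146260899-146261350 held 17 and 36 fragments in Prmt6KO and 26 in WT replicate 1, and none was listed in Igf2bp2KO or WT replicate 2. A peak of 21 fragments in 4921528I07Rik was listed in WT replicate 2 alone.

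Below these, replicated peaks were low. By the rule of the 2 strongest per segment, peaks shared by the Prmt6KO libraries lay in Muc3, a mucin gene, with fold enrichments of 3.46 and 3.62, and in Ap1g1, a clathrin adaptor subunit gene, with 4.61 and 3.17. Others lay in Slc35g2, with 4.61 and 3.62, and 69370 bases from Cfap46, a ciliary gene, with 4.03 and 4.07. On chromosome 12 they lay 10616 bases from Gsc, the goosecoid homeobox gene, with 2.88 and 3.17, and 207677 bases from Gm52008 with 3.46 and 3.17. On chromosome 8 another lay 121472 bases from 1700018B08Rik, with 3.46 and 3.62. None of these had a listed peak in Igf2bp2KO or WT. Their summits held 4 to 8 fragments, and no Igf2bp2KO list showed a summit under 7.

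Peaks shared by the WT libraries were of like size. In Vps33a, a lysosomal trafficking gene, a broad peak at chr5:123543879-123545876 had fold enrichments of 4.61 and 5.43 in Prmt6KO, 3.51 in Igf2bp2KO replicate 2 and 4.47 and 5.74 in WT. Near Cdh3, the P-cadherin gene, a peak at chr8:106482949-106483494 had 5.18 and 2.72 in Prmt6KO and 6.09 and 3.69 in WT. In Sun1, a nuclear envelope gene, the WT values were 3.66 and 3.69, in Papola, a poly(A) polymerase gene, 3.25 and 4.51, and in Rin3 3.25 and 2.87, and no Prmt6KO or Igf2bp2KO list had a peak there. Of the 10 WT peaks named by the rule, 7 were matched in both Prmt6KO libraries.

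A smaller share of peaks was common to both libraries of a genotype in the segments than outside, in Prmt6KO and in WT, and the lists also covered fewer bases there. Of segment peaks in Prmt6KO replicate 1, 6.65% (95% Wilson interval 6.41 to 6.90) overlapped a Prmt6KO replicate 2 peak, where that list covered 2.68% of the bases, and the share was 11.99% in the rest with 4.87% covered. Counted from Prmt6KO replicate 2, it was 19.8% in the segments with 8.40% of bases covered, and 22.03% in the rest with 9.11% covered. In WT, 3.25% of replicate 1 peaks and 5.65% of replicate 2 peaks overlapped the other list in the segments, against 6.85% and 9.17% in the rest. The other WT list covered 0.549% and 0.960% of the segments and 1.44% and 1.92% of the rest. Divided by the coverage of the other list, the Prmt6KO shares were 2.48 and 2.35 in the segments and 2.46 and 2.42 in the rest, and the WT shares were 5.92 and 5.89 in the segments and 4.75 and 4.78 in the rest. Relative to coverage, sharing was thus about equal in Prmt6KO and no lower in the segments in WT. Because 1 shared base was enough and peaks have width, unrelated lists would also give values above 1. The values are therefore compared between segments and rest only, and sharing beyond that of unrelated lists was not tested. Of the WT segment peaks, 19.8% and 19.3% overlapped a peak of Prmt6KO replicate 1, and 9.84% and 9.83% one of Prmt6KO replicate 2.

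The segments were gene-dense. They held 1720 protein-coding genes, 13.3 per Mb, against 8.55 per Mb in the rest and 8.27 in other autosomes, a ratio of 1.56 (95% Wilson interval 1.47 to 1.65). The ratio was 2.00 on chromosome 5, 1.02 on chromosome 7, 1.73 on chromosome 8, 1.39 on chromosome 9 and 2.55 on chromosome 12. Protein-coding genes spanned 53.4% of segment bases and 38.7% of the rest. Long noncoding RNA genes numbered 7.91 per Mb against 4.62, pseudogenes 2.56 against 4.50, and miRNA genes 1.22 against 0.370. The miRNA difference was largest on chromosome 12, with 6.49 per Mb in the segment, which holds the Dlk1-Dio3 imprinted cluster, against 0.227 in the rest.

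Low peak density did not track gene number within the segments. Over 129 bins the Spearman correlation of peaks with genes was -0.05 and -0.16 in Prmt6KO and 0.05 and -0.02 in WT. Over the 527 bins of the rest it was 0.31 and -0.43 in Prmt6KO and -0.22 and -0.28 in WT, so the Prmt6KO libraries had opposite signs there. In bins with under 3 genes per Mb, density was 316 ± 23.8 and 118 ± 21.8 in the segments (SD, n = 22 bins) and 303 ± 24.1 and 194 ± 34.7 in the rest (n = 166 bins) in the Prmt6KO libraries. In the same class WT had 40 ± 12.2 and 22.2 ± 7.28 in the segments and 71.8 ± 17.7 and 58.2 ± 22.5 in the rest. In segment bins with 25 or more genes per Mb, density was 311 and 104 in Prmt6KO and 42.7 and 23.2 in WT. Gene-poor and gene-rich bins of the segments thus differed by less than 1 SD in each of these lists.

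**Figure D4:**
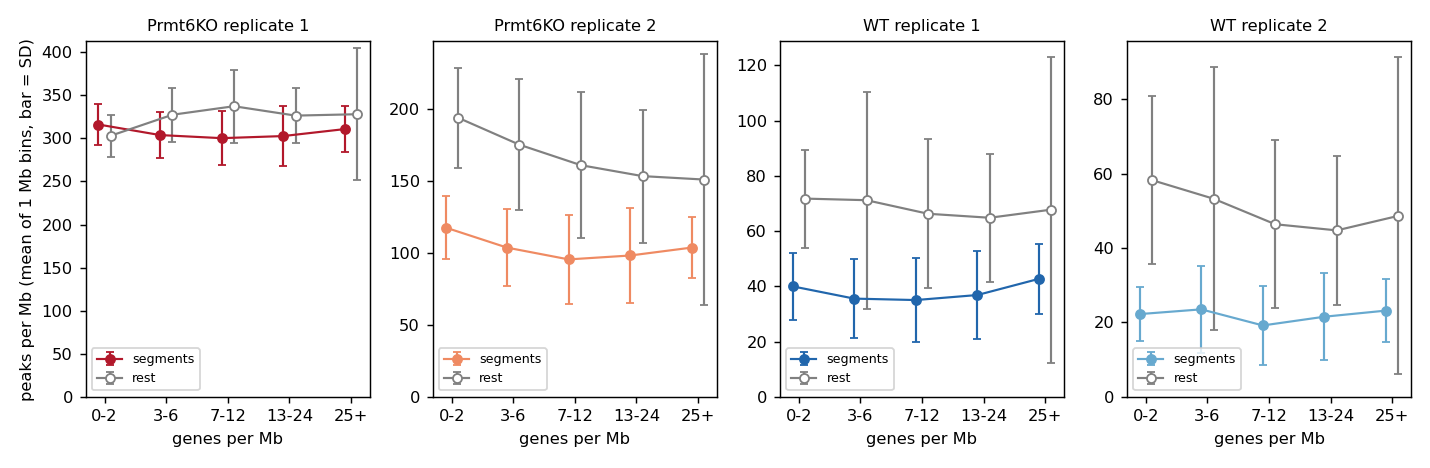
Peaks per Mb (vertical axis, mean of 1 Mb bins, bars are SD over bins) by number of protein-coding genes per Mb (horizontal axis) in the segments (filled) and the rest of the 5 chromosomes (open), 1 panel per library with its own scale. In Prmt6KO replicate 2 and both WT libraries the segments lie below the rest in every class; in Prmt6KO replicate 1 they lie above it in the lowest class, at 316 against 303.

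Averaged over classes of like gene number, the ratio of segment to rest was 0.940 and 0.622 in Prmt6KO and 0.556 and 0.440 in WT, against 0.949 and 0.591 in Prmt6KO and 0.543 and 0.415 in WT without that matching. On chromosome 7, where gene density was nearly equal in segment and rest, the ratio was 0.953 and 0.631 in Prmt6KO and 0.554 and 0.492 in WT. By position, the ratio for intergenic peaks was 0.960 and 0.580 in Prmt6KO and 0.547 and 0.399 in WT. For peaks in gene bodies it was 0.944 and 0.637 in Prmt6KO and 0.567 and 0.456 in WT. For gene-end windows, 1 kb either side of both ends of a gene, it was 0.926 and 0.574 in Prmt6KO and 0.538 and 0.359 in WT. The segments were sparse in all 3 classes in Prmt6KO replicate 2 and WT.

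Promoters of the segments were richer in G+C, and peaks were rarer at promoters of 50% G+C or more in the Prmt6KO and WT lists. Mean G+C was 56.9% ± 9.92 in the segments and 53.1% ± 11.5 in the rest (SD over 2737 and 6736 promoters). A peak overlapped 12.5% and 3.07% of segment promoters in Prmt6KO, 0% and 0% in Igf2bp2KO and 0.950% and 0.329% in WT. In the rest the shares were 15.3% and 5.75% in Prmt6KO, 0.163% and 0.134% in Igf2bp2KO and 2.48% and 1.31% in WT. In segment promoters under 50% G+C they were 17.6% (95% Wilson interval 15.0 to 20.7) and 5.31% (3.88 to 7.23) in Prmt6KO and 3.01% (1.98 to 4.56) and 1.00% (0.487 to 2.06) in WT. At 50% or more they were 10.7% (9.47 to 12.2) and 2.30% (1.74 to 3.05) in Prmt6KO and 0.245% (0.105 to 0.572) and 0.0980% (0.0269 to 0.357) in WT. The fall was not steady in Prmt6KO, with 16.1% and 2.42% below 42% G+C and 18.0% and 5.93% at 42 to 50%. In WT the shares were 5.65% and 2.42% below 42% and 2.44% and 0.698% at 42 to 50%.

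**Figure D5:**
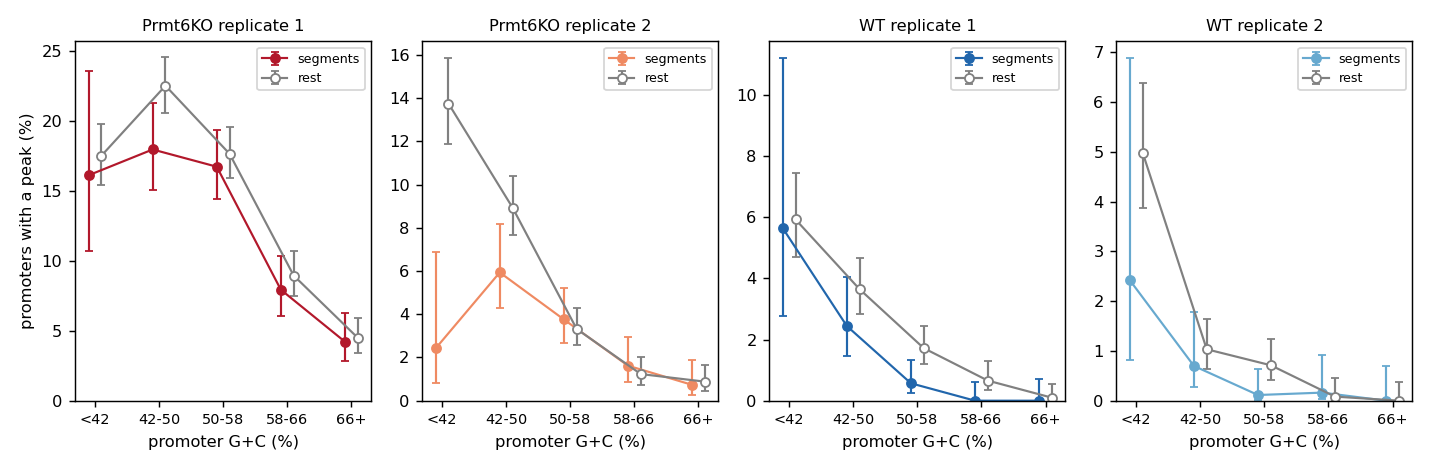
Share of promoters with a peak (vertical axis, percent, bars are 95% Wilson intervals) by promoter G+C content (horizontal axis, percent) in the segments (filled) and in the rest of the 5 chromosomes (open), 1 panel per library with its own scale. At 66% G+C and above the segment shares are 4.22% and 0.734% in Prmt6KO and 0% in both WT libraries.

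Weighting the promoters of the rest by the G+C classes of the segments brought its share to 14.1% and 4.01% in Prmt6KO and 1.75% and 0.689% in WT. These stayed above the segment shares of 12.5% and 3.07% in Prmt6KO and 0.950% and 0.329% in WT. The G+C content of whole segments was not measured, because no genome sequence was used here, and its part in the peak density was not tested.

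Gene-end windows gave the counts of genes. In the segments 390 of 1720 genes had a peak in both Prmt6KO libraries, or 22.7% (95% Wilson interval 20.8 to 24.7), where the background over all 21631 protein-coding genes was 29%. A peak in both Igf2bp2KO libraries marked 1 segment gene, Lars2, against a background of 0.208%. A peak in both WT libraries marked 25 genes, or 1.45% (0.986 to 2.14), against a background of 3.56%. By library the segment shares were 72.9% and 29.5% in Prmt6KO, 0.0581% and 0.0581% in Igf2bp2KO and 12.97% and 5.76% in WT. The rest had 72.5% and 41.3% in Prmt6KO, 0.400% and 0.444% in Igf2bp2KO and 21.2% and 14.3% in WT. The segment share was below that of the rest in all lists but that of Prmt6KO replicate 1. With 72.9% of segment genes marked in that list, many would be marked in both Prmt6KO libraries even if the lists were unrelated. A call in both Prmt6KO libraries is therefore not read as replication.

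Genes with peaks in both Prmt6KO libraries and in neither WT library numbered 308, or 17.9% (16.2 to 19.8), where the background was 18.6% and the rest had 18.4%. The reverse, both WT libraries and neither Prmt6KO library, held for 6 genes, or 0.349%, with a background of 0.425%. Both shares were near their background. The rule used Prmt6KO density, so nothing is read from them. The Prmt6KO count rested on low summits: at a fold enrichment of at least 4, or at a q of 0.05 or below, only Lars2 remained of the 390, a gene named after its values were seen.

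The strongest of the 308 were still weak. Per segment the rule named Naa25, a subunit of an N-terminal acetyltransferase, with fold enrichments of 3.46 and 3.17 in Prmt6KO, and 4930519G04Rik with 2.88 and 3.62. On chromosome 7 it named Srcap, the ATPase of a histone H2A.Z exchange complex, and Gm51460, each with 3.46 and 3.17. On chromosome 8 it named Clec18a, a C-type lectin gene, with 2.88 and 3.17, and Mlkl, the effector of necroptosis, with 2.88 and 3.62. On chromosome 9 it named Aste1 with 3.46 and 3.17 and Klhl18, a kelch-like gene, with 2.88 and 3.17. On chromosome 12 it named Tcl1, a coactivator of AKT and a T cell leukemia gene, and Rtl1, an imprinted retrotransposon-derived gene, each with 2.88 and 3.17.

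Genes of blood and leukemia in the segments had the same low values. Of 23 leukemia and blood regulators, 8 had gene-end peaks in both Prmt6KO libraries and 0 in both WT libraries. The background over all protein-coding genes was 29% in Prmt6KO and 3.56% in WT. Over all segment genes the shares were 22.7% and 1.45%, and nothing is read from the counts of the list. The 8 genes were Hip1, Cux1, Trrap, Flt3, Irf7, Rhoa, Smarcc1 and Tcl1. Irf7, a transcription factor of the interferon response, had fold enrichments of 2.88 and 3.17 in Prmt6KO and 2.44 in WT replicate 1, with none in WT replicate 2. Flt3, a receptor kinase of early blood cells, had 2.30 and 1.81 in Prmt6KO and no gene-end peak in WT. Over the Flt3 gene with 1 kb either side there were 16 and 10 peaks in Prmt6KO and 2 and 2 in WT, where the mean density of the segments gives 21.9 and 7.35 in Prmt6KO and 2.70 and 1.54 in WT.

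Cux1, a homeobox gene at which deletions occur in myeloid leukemia, had 105 and 38 peaks over its body in Prmt6KO and 20 and 9 in WT, where segment density gives 98.2 and 32.9 in Prmt6KO and 12.1 and 6.92 in WT. Setd2, the histone H3 lysine 36 methyltransferase gene, had 28 and 17 in Prmt6KO and 14 and 6 in WT, where it gives 26.9 and 9.03 in Prmt6KO and 3.32 and 1.90 in WT. Cbfa2t3, a corepressor gene, had 21 and 0 in Prmt6KO and 1 and 0 in WT, where it gives 23.3 and 7.81 in Prmt6KO and 2.87 and 1.64 in WT. These genes lay on either side of the mean. The small genes Hras and Cdkn1c had no peak in any list.

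Among 15 myeloid granule and adhesion genes, 6 had gene-end peaks in both Prmt6KO libraries (background 29%) and 0 in both WT libraries (background 3.56%). They were Ncf1, a subunit of the phagocyte oxidase, Pycard, the inflammasome adaptor, Itgad, Cd81, Plcg2 and Ngp, the neutrophilic granule protein gene. Ncf1 had fold enrichments of 2.30 and 2.72 in Prmt6KO, and Ngp 1.73 and 2.26. Of 7 lymphoid genes, 1 was called in Prmt6KO, the chemokine receptor gene Ccr4 with 2.88 and 2.72, and 0 in WT. Of 29 genes on the list for other tissues, 4 were called in Prmt6KO and 0 in WT, namely Epo, Ptpre, Rbp2 and Scn10a. Whether these genes, Ptpre among them, are silent in blood cells was not measured. Scn10a, a sodium channel gene of sensory neurons, had 2.88 and 2.26, values like those of the blood genes.

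Of 15 imprinted genes, 5 were called in Prmt6KO and 0 in WT. Igf2, a fetal growth factor gene, had fold enrichments of 2.88 and 2.26, Cd81 2.88 and 2.72, Tssc4 2.30 and 2.72, Nap1l4 2.30 and 2.72 and Rtl1 2.88 and 3.17. Of 17 DNA repair and chromatin genes, 4 were called in Prmt6KO and 0 in WT, among them Palb2, Mgmt and Smarcc1. No list had a called gene in WT, where the background was 3.56% and the share over all 1720 segment genes was 1.45%. The lists were chosen for genes known to lie in these segments, and their Prmt6KO counts stand beside the background of 29% with nothing read from them.

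Hairpins of miRNAs were marked about as often in the segments as in the rest in Prmt6KO replicate 1. Of 149 hairpins of the RefSeq table in the segments, 11 and 2 overlapped a peak in Prmt6KO, 0 and 0 in Igf2bp2KO and 0 and 0 in WT. These were 7.38% (95% Wilson interval 4.17 to 12.7) and 1.34% (0.369 to 4.76) in Prmt6KO, where the 169 hairpins of the rest had 7.69% (4.55 to 12.7) and 5.92% (3.25 to 10.5) in Prmt6KO, 0% and 0% in Igf2bp2KO and 0% and 1.18% in WT. The Wilson interval of 0 of 149 reaches 2.51%. Of the 70 on chromosome 12, 8 and 0 did in Prmt6KO. The counts were 0 and 2 in Prmt6KO on chromosome 5, and replicate 2 marked none on the other 4 chromosomes, so no hairpin was marked in both Prmt6KO libraries.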

How the data were processed

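Peak lists of 6 H3R2me2a libraries were used. Inputs were not analysed here. MACS2 2.1.0, HISAT2, Trim Galore, bedtools, bcl2fastq 2.17 and the build mm10 are named in the submitters' processing notes, which give no settings. Each deposited list gives, per library, a fold enrichment (a ratio) and the -log10 of the p-value and q-value at each summit, as the authors' caller made them. The summit pileup, a coverage signal, comes from the companion tables, per the file headers. Whole-number pileups in Prmt6KO and WT were taken as fragments, and those in Igf2bp2KO were divided by their steps of 0.277 and 0.302. The background followed from fold enrichment being the pileup plus 1 over the background plus 1. The 1 was added on the scale of each list, so Igf2bp2KO fold enrichments are lower than others for the same fragments and background. Total reads per library are not given in the sources used here.

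Peaks on chromosomes 1 to 19 and X were counted, with 2103 and 1413 (Prmt6KO), 67 and 40 (Igf2bp2KO) and 2850 and 532 (WT) on other sequences left out. Density was peaks per Mb between the first and the last listed peak of a chromosome. Overlap meant 1 shared base. Genes came from the RefSeq table of GRCm38.p6, the build mm10, which gives no strand or exons. A genotype's call for a gene required that each of its libraries list a peak within 1 kb of either gene end. Igf2bp2KO and WT were compared by a two-sided exact permutation test. The named genes were those of 6 lists, the 2 strongest replicated peaks and gained genes per segment, and the extreme 1 Mb bins. One such bin and 1 list gene are not reported here. The segments, lists and rules were chosen with earlier results of these data known. Alternatives were other comparison regions, thresholds, windows and left-out libraries or segments. Density and overlap code was tested on simulated data. Tools were Python 3.11.15, numpy 2.4.6, pandas 2.3.3, scipy 1.17.1 and matplotlib 3.10.9.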

Additional observations from a re-analysis of the deposited data

How the results depend on the processing

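The log2 difference in relative segment density between Prmt6KO and WT was 0.66 for all peaks and above 0 in 20 of 21 alternatives. The segments were selected on at least 1 side of this contrast, so that count is a description and lends it no support. Counting over 100 kb bins with a peak in any list, and the replicate block, return the same 0.66 by construction. The difference was 0.21 at a q of 0.05 or below. There the ratio of segment to rest was 0.413 and 0.236 in Prmt6KO and 0.318 and 0.229 in WT. The difference turned to -0.69 for summits of 8 fragments or more, a height added after seeing the data. With 1 library left out it ran from 0.31 to 1.00. The same-numbered pairs differed by 0.80 and 0.51, so the replicate block left the mean at 0.66. Across autosomal bins the replicate differences of Prmt6KO and WT had a correlation of 0.54, with only 2 pairs, and nothing in the labels says that the numbers pair the libraries. The Igf2bp2KO difference, -4.36, ran from -4.96 to -3.76 with 1 library left out and from -4.93 to -0.91 over the other settings, with an exact permutation p of 0.333, and 0.5 with the replicate block, each the smallest possible. It could not be computed for each chromosome apart, since some segments held 0 Igf2bp2KO peaks. The 390 genes with gene-end peaks in both Prmt6KO libraries became 954 with windows of 2.5 kb, 1221 with gene bodies, 1 past a 4-fold enrichment and 1 past the q threshold of 0.05. Called from 1 library they were 508 and 1254. The gene density ratio, 1.56, was 1.33 over all genes of the table. The log2 ratio of segment to rest for summits of 8 fragments or more in Prmt6KO replicate 1, -2.31, ran from -2.70 to -1.77. With 2 libraries per genotype, no total read number and a depth visible only as a background of 0.736 to 1.46 fragments, small differences between genotypes could not be told from differences between libraries.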
